A study of Mus musculus with 12 samples.

Results

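The genes described here encode the subunits of ionotropic glutamate receptors, GABA-A receptors and glycine receptors in the mouse hypothalamus. Members were the protein-coding genes listed for both diets whose symbols begin with *Gria*, *Grin*, *Grik* or *Grid* (glutamate receptors), *Gabr* followed by a subunit letter (GABA-A receptors), or *Glra* or *Glrb* (glycine receptors). This gave 36 genes among 16438 listed for both diets, with 17 subunits of excitatory receptors and 19 of inhibitory receptors. The excitatory set held 4 AMPA, 6 NMDA and 7 kainate and delta subunits, and the inhibitory set held 15 GABA-A and 4 glycine receptor subunits. A GABA-A gene, *Gabra6*, was listed on the high-fat diet (HFD) but not on chow and is given apart.

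Ionotropic glutamate receptors are tetramers that let cations into the neuron and depolarize it, with AMPA receptors carrying most fast excitation and NMDA receptors opening where glutamate binding and depolarization coincide. GABA-A and glycine receptors are pentameric chloride channels that mediate fast inhibition in most mature neurons. In the hypothalamus, circuits that control feeding use both transmitters, and the subunits a neuron makes set the conductance, kinetics, location and drug response of its receptors.

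RNA came from the hypothalamus of 12 male mice of 8 weeks, 3 in each of 4 groups. Chow WT (+/+) and chow *Gpr75-/-* mice stayed on a chow diet, and HFD WT and HFD *Gpr75-/-* mice were fed a HFD for 2 weeks, starting at 6 weeks. The strain was C57BL/6J, and the *Gpr75-/-* mice were homozygous in every cell for a CRISPR/Cas9 allele with an early stop codon. GPR75 is a G protein–coupled receptor that the study links to food intake, and the genotypes were compared on each diet.

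The values analyzed were the authors' mean of each group, decoded to mean log2 CPM (counts scaled to a common library total), and the authors' mean normalized count over the 6 mice of a diet. Summed over genes, the mean normalized count was 18280462 for chow and 19420111 for the HFD, the scaled depth of a typical library. No values of individual mice were analyzed here, so no difference has a replicate error or a p-value. Differences are *Gpr75-/-* minus WT on the log2 scale, each with the range that the rounding of the deposited means to 2 decimals leaves. For the members this range reached a median of 0.05 to either side on each diet, so a difference near 0.05 is a single rounding step and cannot be told from 0. The range does not cover variation between mice. In bulk tissue, fewer cells of a type and less RNA per cell cannot be told apart.

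*Gpr75* mRNA itself had a mean log2 CPM of 4.06 in chow WT mice and 4.62 in chow *Gpr75-/-* mice, a difference of 0.55 (0.52 to 0.59). On the HFD the values were 4.31 and 4.21, a difference of -0.11 (-0.15 to -0.07). The effect of the early stop codon on the mRNA level is not known here, so these values do not check the genotype labels. The tissue label was matched by high levels of hypothalamic peptide genes, with a mean normalized count for *Pmch*, which encodes melanin-concentrating hormone, of 4589 on chow and 5138 on the HFD. Thalamic and striatal marker genes were also present, and the thalamic gene *Tcf7l2*, at 6351 and 5295, was above *Pmch*. Values of these lists are given after those of the subunits.

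Subunit mRNA levels spanned a wide range and had nearly the same order on both diets. Levels are compared between genes as the authors' mean normalized count per kb of the longest protein-coding transcript. Among the highest were the glycine receptor gene *Glrb*, at 2285 per kb on chow and 2639 on the HFD, and the AMPA subunit genes *Gria1* (1551 and 1684) and *Gria2* (1102 and 1108). The lowest was *Gabrr2*, a rho subunit gene known mainly from retina, at 15.3 per kb on chow and 20.5 on the HFD. It was the only member with a mean normalized count under 100, at 29.6 and 39.6. Summed over subunits, the excitatory level per kb was 0.521 of the inhibitory level on chow and 0.488 on the HFD. This ratio depends strongly on the length used, and it was 0.257 and 0.227 with the median transcript length and 0.803 and 0.747 without division by length.

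**Figure D1:**
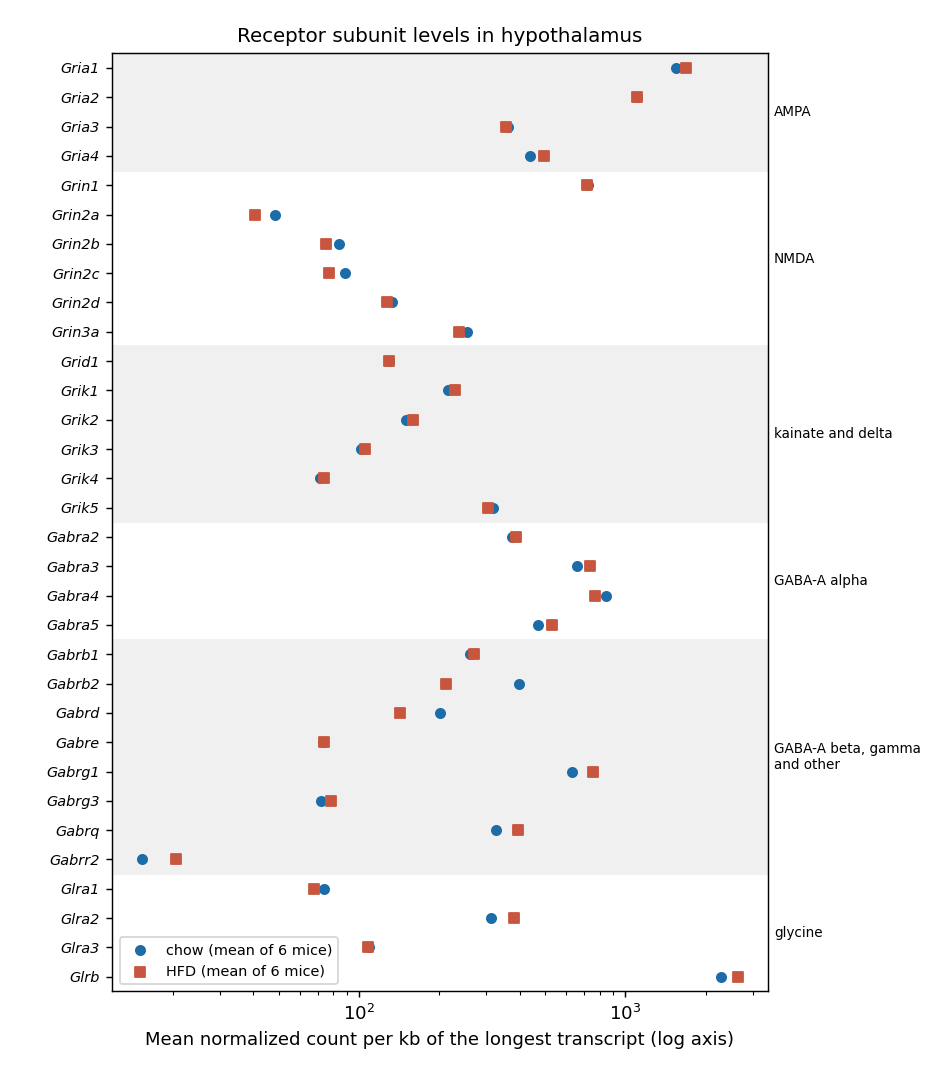
Authors' mean normalized count over 6 mice per kb of the longest transcript (log axis) for 32 of the 36 subunit genes, with circles for chow and squares for the HFD. *Glrb* lies highest of those drawn, at 2285 and 2639 per kb, and *Gabrr2* lowest.

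Within classes the levels were uneven. In the AMPA class *Gria1* and *Gria2* led *Gria4* (437 and 493 per kb on chow and the HFD) and *Gria3* (361 and 356). *Gria2* encodes the subunit whose edited form keeps calcium out of the channel, and it was behind *Gria1* with the longest or the median transcript length and ahead of it with no division by length. The obligatory NMDA subunit gene *Grin1* stood at 723 and 718 per kb, above *Grin3a* (253 and 236) and *Grin2d* (133 and 127). The other NMDA genes, *Grin2c*, *Grin2b* and *Grin2a*, lay between 40.6 and 88.8. The low place of *Grin2b* rests on its very long longest transcript, and with the median transcript length it was first of the class, at 1278 and 1143 per kb. The kainate subunit gene *Grik5* (318 and 305) led its class by this measure, followed by *Grik1* (216 and 228), while *Grik2* was first with the median transcript length (496 and 527 per kb) or with no division by length.

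Among GABA-A alpha subunits, *Gabra4*, a partner of the delta subunit in extrasynaptic receptors, stood at 847 and 766 per kb on chow and the HFD, and *Gabra3* at 655 and 734. Of the remaining GABA-A genes, *Gabrg1* stood at 629 and 753. *Gabrq*, which encodes the theta subunit, stood at 326 and 394 per kb, and *Gabre*, which encodes the epsilon subunit, at 73.0 and 73.8. These last subunits are known for their restricted expression, which includes the hypothalamus. *Glrb* encodes the beta subunit that ties glycine receptors to gephyrin, and it exceeded the ligand-binding alpha subunit genes *Glra2* (313 and 381), *Glra3* (109 and 108) and *Glra1* (73.7 and 67.6).

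On chow, the genotypes differed little for most subunits. Of the 36 members, 6 were higher by at least 0.1 in *Gpr75-/-* mice, or 16.7%, against 22.5% of all 16855 genes. Another 8 were lower by at least 0.1, or 22.2%, against 20.8% of all genes. At 0.2 the counts were 3 higher, against 9.4% of all genes, and 2 lower, against 9.04%. Genes with low counts pass these thresholds more often, and 35 of the 36 members had a mean normalized count of at least 100. Among those 35, 5 were higher by at least 0.1 (14.3%, against 17.2% of genes at that mean) and 8 lower (22.9%, against 16.5%). At 0.2 there were 2 higher and 2 lower, each 5.71%, against 4.36% and 4.91% of genes. With so few members past 0.2, those shares say little.

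Most subunits also differed little between genotypes on the HFD. In HFD-fed *Gpr75-/-* mice, 6 members were higher by at least 0.1, or 16.7%, against 21.7% of all 16744 genes. The 7 lower members, or 19.4%, stood against 16.6% of all genes. At 0.2 there were 2 higher, against 8.16%, and 3 lower, against 6.84%. Among the 35 members with a mean of at least 100, 5 were higher by at least 0.1 (14.3%, against 16.3% of genes at that mean) and 7 lower (20%, against 12.5%). At 0.2 there was 1 higher (2.86%, against 3.46%) and 3 lower (8.57%, against 3.37%). The share of lower members was above that background at both thresholds, though by few genes, and the 3 past 0.2 were *Gabrb2*, *Gabrd* and *Grin3a*.

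The WT and *Gpr75-/-* mice of each diet are separate animals, so the genotype comparisons on the diets share no samples. *Gabre* and *Gabrr2* were higher by at least 0.1 on both diets, where 6.73% of genes listed for both diets were. *Gabrb2*, *Gabrd*, *Gria3* and *Grin3a* were lower on both, where 5.74% of genes were. The 4 genes lower on both diets are 50% of those lower on chow and 57.1% of those lower on the HFD, against 27.9% and 35.1% over all genes. The 2 genes higher on both diets are 33.3% of those higher on each diet, against 30.6% and 31.6% over all genes. On the HFD *Gabra5*, higher on chow, was just short of the threshold at 0.099, and *Gria3* passed it at -0.105. Both lay closer to 0.1 than rounding resolves, so these overlaps are not exact.

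**Figure D2:**
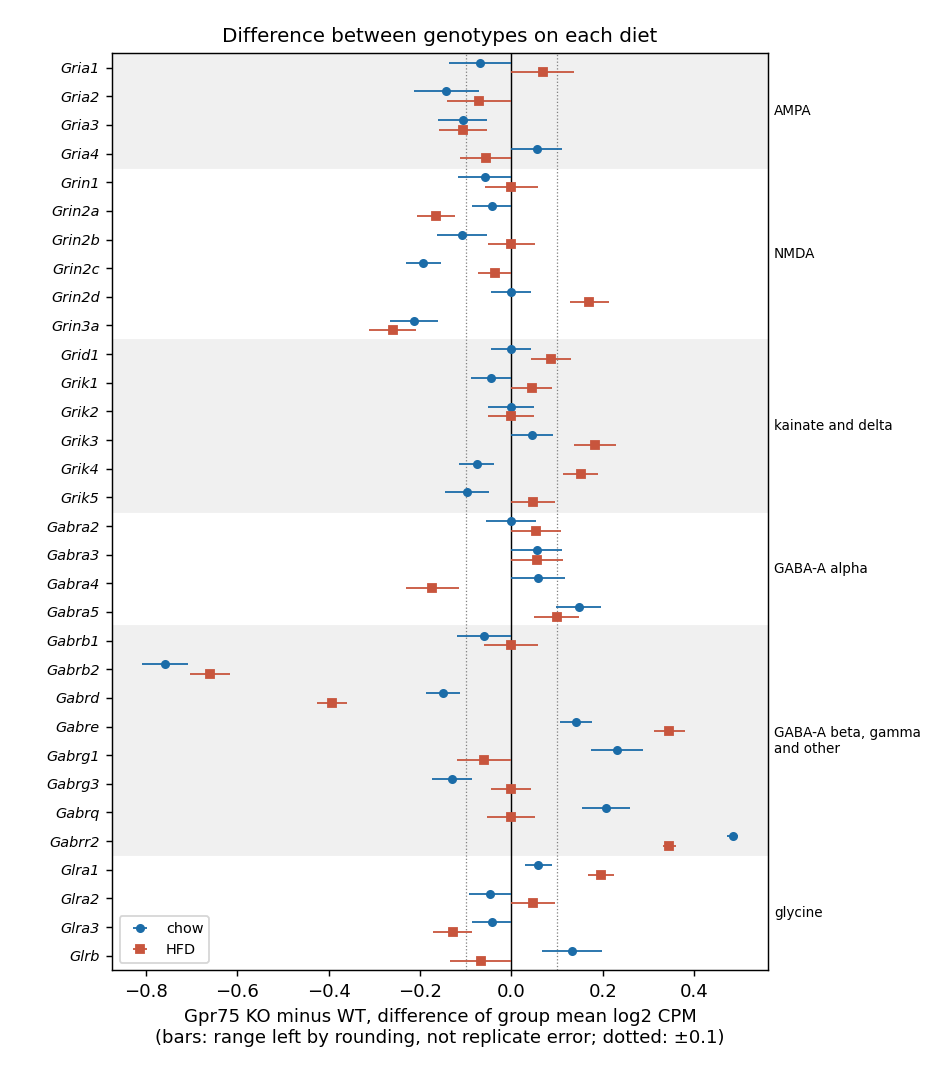
Difference of mean log2 CPM, *Gpr75-/-* minus WT, for 32 of the 36 subunit genes on chow (circles) and on the HFD (squares), with bars for the range left by rounding and dotted lines at 0.1 to either side of 0. *Gabrb2* lies farthest to the left on both diets, at -0.76 and -0.66.

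Excitatory and inhibitory subunits had medians on opposite sides of 0 on chow and the same median on the HFD. On chow the excitatory subunits had a median difference of -0.06, with 12 of 17 below 0, 2 above and 3 at 0. The inhibitory subunits had a median of 0.06, with 7 of 19 below 0, 10 above and 2 at 0. Of all 16855 genes, 6913 were below 0 and 7553 above. Of the 12413 with a mean of at least 100, 4884 were below and 5285 above. The excitatory median was lower by a difference of -0.11, where the median of all genes was 0. Past 0.1, there were 5 lower and 0 higher excitatory subunits, and 3 lower and 6 higher inhibitory subunits. Of all genes, 20.8% were lower and 22.5% higher past 0.1, and of genes with a mean of at least 100, 16.5% and 17.2%. Differences beyond their rounding range were found in 7 lower and 0 higher excitatory subunits on chow. Among inhibitory subunits they were found in 3 lower and 7 higher, and among all genes in 29.9% lower and 32.1% higher. The rounding range is narrower at low counts, so these shares over all genes are not a like background for the members. The medians are each about 1 rounding step from 0, and whether their difference exceeds variation between mice was not tested.

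On the HFD both medians were 0. The excitatory subunits had 6 below 0, 8 above and 3 at 0, and the inhibitory subunits 8 below, 8 above and 3 at 0. Of all 16744 genes, 6047 were below 0 and 7895 above. Of the 12509 with a mean of at least 100, 4197 were below and 5623 above. Past 0.1, 3 excitatory subunits were lower and 3 higher, and 4 inhibitory subunits were lower and 3 higher. Of all genes, 16.6% were lower and 21.7% higher past 0.1, and of genes with a mean of at least 100, 12.5% and 16.3%. Beyond rounding, 3 excitatory subunits were lower and 4 higher, and 4 inhibitory subunits were lower and 4 higher. Among all genes on the HFD, 24.9% were lower and 33% higher beyond rounding, with the same limit as on chow. The opposite medians on chow were thus not seen on the HFD, and the difference between the diets was not tested. The summed CPM per kb of excitatory over inhibitory subunits was 0.540 in chow WT, 0.501 in chow *Gpr75-/-*, 0.480 in HFD WT and 0.494 in HFD *Gpr75-/-* mice.

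AMPA subunits were lower or near 0 in chow-fed *Gpr75-/-* mice. *Gria2* had 648 CPM in chow WT and 587 in chow *Gpr75-/-* mice, a difference of -0.14 (-0.21 to -0.07), and 616 and 587 on the HFD, a difference of -0.07 (-0.14 to 0). *Gria3*, on the X chromosome, had 106 and 98.4 CPM on chow and 98.4 and 91.5 on the HFD. Its differences of -0.11 (-0.16 to -0.05) and -0.10 (-0.16 to -0.05) made it the AMPA gene below 0 beyond rounding on both diets. *Gria1* was at -0.07 on chow and 0.07 on the HFD, and *Gria4* at 0.06 and -0.06, each within rounding.

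NMDA subunits included the excitatory gene with the lowest difference on both diets. *Grin3a* encodes a glycine-binding subunit that lowers the calcium permeability of the receptor. It had 110 CPM in chow WT and 94.9 in chow *Gpr75-/-* mice, a difference of -0.21 (-0.27 to -0.16). On the HFD it had 98.4 and 82.2 CPM, a difference of -0.26 (-0.31 to -0.21). *Gpr75-/-* mice were thus at 0.863 and 0.835 of the WT level. The other NMDA genes had no such repeat across diets.

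*Grin2c*, a subunit gene known from cerebellum, thalamus and glia, had 25.2 and 22.1 CPM in WT and *Gpr75-/-* mice on chow, a difference of -0.19 (-0.23 to -0.15). On the HFD it was at -0.04 (-0.07 to 0). *Grin2b* was at -0.11 (-0.16 to -0.05) on chow and 0.00 on the HFD. The order was the other way around for *Grin2a*, at -0.04 on chow and -0.16 (-0.21 to -0.12) on the HFD. *Grin2d*, known from interneurons and the diencephalon, was at 0.00 on chow and 0.17 (0.13 to 0.21) on the HFD, with 33.4 CPM in WT and 37.6 in *Gpr75-/-* mice there. *Grin1* was at -0.06 and 0.00, within rounding on both diets.

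Kainate and delta subunits lay near 0 on chow and slightly above it on the HFD. Their median was -0.04 on chow, with 4 of 7 below 0, 1 above and 2 at 0. On the HFD it was 0.05, with 6 above and 1 at 0. Among genes with a mean of at least 100, 4884 of 12413 were below 0 on chow. On the HFD 5623 of 12509 were above 0. *Grik3* had 45.2 CPM in HFD WT and 51.3 in HFD *Gpr75-/-* mice, a difference of 0.18 (0.14 to 0.23), against 0.05 on chow. *Grik4*, which like *Grik5* encodes a high-affinity subunit that needs other kainate subunits to form a channel, was at 0.15 (0.11 to 0.19) on the HFD. On chow it was at -0.08 (-0.11 to -0.04), so its sign differed between the diets beyond rounding. *Grid1* was at 0.09 (0.04 to 0.13) on the HFD and *Grik5* at -0.10 (-0.15 to -0.05) on chow, and *Grik1* and *Grik2* were within rounding on both diets.

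GABA-A alpha subunits differed little on chow. *Gabra5*, known from extrasynaptic receptors, had 64.6 and 71.5 CPM on chow, a difference of 0.15 (0.10 to 0.20). On the HFD it had 69.1 and 74.0 CPM, a difference of 0.099 (0.05 to 0.15), just under 0.1. *Gabra4* was at 0.06 (0.00 to 0.12) on chow. In HFD-fed mice it had 169 CPM in WT and 150 in *Gpr75-/-* mice, a difference of -0.17 (-0.23 to -0.12). *Gabra2* and *Gabra3* were within rounding on both diets.

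The farthest from 0 of all members on both diets was *Gabrb2*, which encodes a beta subunit of synaptic GABA-A receptors. The authors' mean corresponded to 102 CPM in chow WT and 60.4 in chow *Gpr75-/-* mice, and to 51.3 in HFD WT and 32.5 in HFD *Gpr75-/-* mice. Chow WT mice thus had the highest level and HFD *Gpr75-/-* mice the lowest. The difference was -0.76 (-0.81 to -0.71) on chow and -0.66 (-0.70 to -0.62) on the HFD, or 0.591 and 0.633 of the WT level. On chow it was the lowest difference among 7321 genes with a mean normalized count of at least 500, and on the HFD the 2nd lowest among 7560. Among genes with a mean of at least 100 it ranked 4th lowest of 12413 and 8th lowest of 12509.

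The level of *Gabrb2* also appears to have varied within groups. An arithmetic mean exceeds a geometric mean by more the wider the values spread, and the authors' mean normalized count and decoded group means are of these kinds. The excess for *Gabrb2*, relative to genes of like level, was 0.09 on the log2 scale on chow and 0.05 on the HFD, at the 99.8 and 99.6 percentiles of genes with a mean of at least 100. Such an excess corresponds to an SD between mice of roughly 0.61 (0.51 to 0.69 from rounding) on chow and 0.45 (0.32 to 0.54) on the HFD. The estimate tends to run low, so these SDs may be too small. The SD is of single mice and is 1 value for both genotypes, so it does not show which group or mouse it came from. It is not the error of a difference between group means. With 3 mice a group, the genotype differences of -0.76 and -0.66 are not shown to exceed variation between mice.

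*Gabrb2* lies on chromosome 11 (GRCm39), from 42310584 to 42519855. Another beta subunit gene, *Gabrb1*, was at -0.06 on chow and 0.00 on the HFD, within rounding on both diets.

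**Figure D3:**
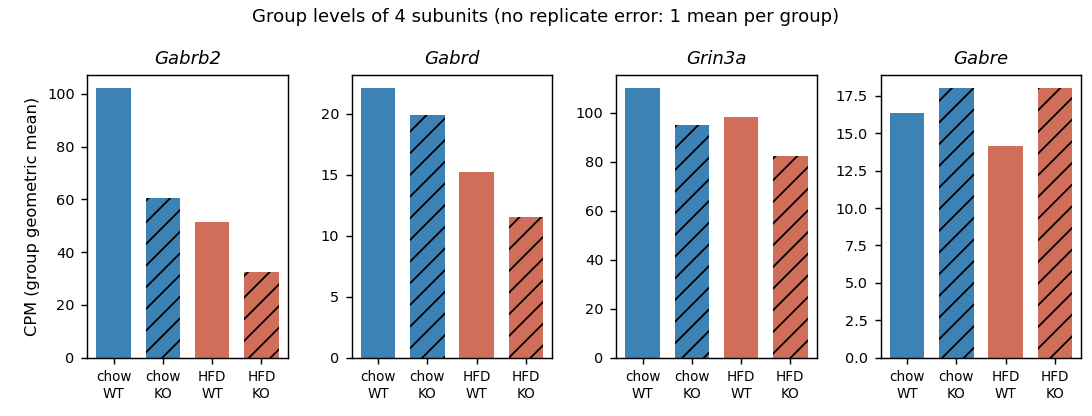
Level of *Gabrb2*, *Gabrd*, *Grin3a* and *Gabre* in the 4 groups as CPM, decoded from the authors' group means, with plain bars for WT and hatched bars for *Gpr75-/-* mice on chow (blue) and the HFD (red). *Gabrb2* had 102, 60.4, 51.3 and 32.5 CPM from left to right, and there are no error bars because each group has 1 mean.

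*Gabrd* encodes the delta subunit of extrasynaptic, neurosteroid-sensitive receptors that carry tonic inhibition. It had 22.1 CPM in chow WT and 19.9 in chow *Gpr75-/-* mice, a difference of -0.15 (-0.19 to -0.11). On the HFD it had 15.2 and 11.6 CPM, a difference of -0.39 (-0.43 to -0.36). As with *Gabrb2*, both HFD groups were below both chow groups. Its excess on the HFD, at the 99.7 percentile, corresponded to an SD of single mice of roughly 0.52 (0.45 to 0.59), again 1 value for both genotypes. The difference of -0.39 is likewise not shown to exceed variation between mice. For the other members, apart from the low *Gabrr2* on chow, the spread could not be told from 0 by this estimate. Its upper end from rounding was at most 0.47 on chow and 0.48 on the HFD. The estimate tends to run low, so these values set no upper limit on the spread between mice.

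Members higher by at least 0.2 in *Gpr75-/-* mice on either diet were the GABA-A genes *Gabrg1*, *Gabrq*, *Gabre* and *Gabrr2*. *Gabrg1* had 150 CPM in chow WT and 176 in chow *Gpr75-/-* mice, a difference of 0.23 (0.17 to 0.29), but 191 and 183 on the HFD, a difference of -0.06 (-0.12 to 0). *Gabrq* had 82.2 and 94.9 CPM on chow, a difference of 0.21 (0.16 to 0.26), and 98.4 in both HFD groups. For both genes the chow WT group was the lowest of the 4.

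*Gabre*, near *Gabrq* on the X chromosome, had 16.3 CPM in chow WT and 18.0 in chow *Gpr75-/-* mice, a difference of 0.14 (0.11 to 0.18). On the HFD it had 14.2 and 18.0 CPM, a difference of 0.35 (0.31 to 0.38), or 1.27 times the WT level. The *Gpr75-/-* groups had the same level and the WT groups differed. *Gabrr2* was at 0.48 (0.47 to 0.50) on chow and 0.35 (0.33 to 0.36) on the HFD, but it had 1.31 and 1.84 CPM on chow and 1.77 and 2.26 on the HFD, levels at which counting error is large. *Gabrg3* was lower on chow, at -0.13 (-0.17 to -0.09), and at 0.00 on the HFD.

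Glycine receptor genes showed no shared direction. *Glrb* had 365 CPM in chow WT and 401 in chow *Gpr75-/-* mice, a difference of 0.13 (0.07 to 0.20), and was at -0.07 (-0.13 to 0) on the HFD. *Glra1*, the adult alpha subunit gene of spinal cord and brainstem, had 7.70 and 8.82 CPM on the HFD. The difference was 0.196 (0.17 to 0.22), just under 0.2 and within rounding of it, against 0.06 (0.03 to 0.09) on chow. *Glra3* was at -0.04 on chow and -0.13 (-0.17 to -0.09) on the HFD. *Glra2* was at -0.05 and 0.05, within rounding.

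*Gabra6* encodes an alpha subunit made mainly by cerebellar granule cells. It was listed on the HFD with a mean normalized count of 38.7. HFD WT mice were listed at the floor of the group means, at or under 1 CPM, and HFD *Gpr75-/-* mice at 2.28 CPM. No fold was taken against the floor. The excess of its arithmetic mean was 0.26, corresponding to an SD between mice of roughly 1.06 (1.04 to 1.07 from rounding), wider than for *Gabrb2* or *Gabrd*, though the low count and the floor in WT mice limit this estimate. A list of 10 cerebellar markers, which includes *Gabra6*, was listed whole on the HFD. Of these, 7 were higher and 2 lower by at least 0.1, against 21.7% and 16.6% of all genes. *Cbln3* (2.51 CPM), *Barhl1* (1.49 CPM) and *Pcp2* (1.20 CPM) were, like *Gabra6*, at the floor in WT mice. Of the other 6, all above the floor, *Car8* (0.42), *Neurod1* (0.29) and *Cbln1* (0.23) were higher, *Zic1* (-0.30) and *Zic2* (-0.25) lower, and *Calb1* was at 0.07. On chow the 4 genes at the floor were not listed, and 1 of the other 6 was higher and 1 lower, against 22.5% and 20.8% of all genes. The list summed to 493 CPM in HFD WT and 521 in HFD *Gpr75-/-* mice, and to 467 and 499 on chow, most of it from *Calb1*, which hypothalamic neurons also express. Whether RNA of cerebellar cells had a part in the *Gabra6* value was not tested.

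Genes of regions next to the hypothalamus also differed between genotypes, each list mainly on 1 diet. Counts of higher and lower genes in the region and cell type lists are past 0.1. Of all genes, 22.5% were higher and 20.8% lower by that measure on chow, and 21.7% and 16.6% on the HFD. On chow, 5 of 5 striatal markers were lower in *Gpr75-/-* mice, with a median of -0.68 and a sum of 96.2 CPM in WT and 62.7 in *Gpr75-/-* mice. On the HFD 2 of 5 were lower, with a median of -0.07 and sums of 61.9 and 58.2 CPM. Thalamic markers had the reverse pattern. On chow 0 of 5 passed 0.1, with a median of 0 and sums of 866 and 877 CPM. On the HFD 5 of 5 were lower, with a median of -0.25, sums of 715 and 602 CPM, and -0.25 for the most abundant, *Tcf7l2*. No gene of either list was at the floor. *Gabrb2* and *Gabrd*, which thalamic neurons express, were lower on both diets, while the striatal genes differed mainly on chow and the thalamic genes on the HFD. The part of these regions in the subunit differences was not tested.

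Cortical and hippocampal markers had 2 higher and 2 lower of 5 on chow (sums of 286 and 280 CPM) and 2 higher and 3 lower of 6 on the HFD (246 and 213 CPM). *Camk2a*, the most abundant, was at -0.06 on chow and -0.18 on the HFD, and 1 gene of the list was at the floor on the HFD. Hypothalamic neuron genes had 4 higher and 5 lower of 17 on chow (946 and 966 CPM). On the HFD 14 of 17 were higher and 0 lower, with a median of 0.32 and sums of 929 and 1111 CPM, while the subunits had a median of 0. The part of these genes in the subunit differences was not tested.

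Markers shared by all neurons were level, with a median of 0.00 on chow and -0.03 on the HFD with 1 of 10 lower by at least 0.1 on each diet and 1 higher on the HFD. *Snap25*, the most abundant, was at -0.08 and 0.00. Oligodendrocyte genes were lower in 6 of 8 cases on chow (11498 and 9805 CPM) and in 8 of 8 on the HFD (12082 and 10346 CPM). Choroid plexus genes were higher in 5 of 5 cases on chow (35.3 and 60.8 CPM), and on the HFD 2 of the 3 listed were higher and 1 lower (29.7 and 29.8 CPM). Of the 5 on chow, *Kcnj13* was at the floor in chow WT mice. *Ttr*, the most abundant, had a mean normalized count of 2910 on chow beside mean log2 CPM of only 2.48 in WT and 3.69 in *Gpr75-/-* mice, so its level differed widely between mice, which these sums do not show. Past 0.1, astrocyte genes had 2 of 7 higher on chow and 1 on the HFD, oligodendrocyte precursor genes 1 of 4 lower and 3 lower, and endothelial genes 2 of 4 lower and 1 lower. Microglial genes had 1 of 5 higher and 1 lower on chow and 1 lower on the HFD. Apart from the choroid plexus, the cerebellum and the cortex and hippocampus, no list had a gene at the floor, and the part of these cells in the subunit differences was not tested.

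With the diets set side by side, the NMDA subunits had the median farthest from 0 of the 6 receptor classes, and some lists of other synaptic genes had medians close to it. The tables of the diets were normalized separately, so levels across them carry that limit, and these comparisons share their groups with the genotype comparisons. In WT mice 8 of 36 members were higher by at least 0.1 on the HFD, against 24.2% of genes listed for both diets, and 15 were lower, against 28%. In *Gpr75-/-* mice 5 were higher, against 21.5%, and 10 lower, against 22.3%. The 15 lower members in WT mice, or 41.7% of the 36, held 10 of 17 excitatory and 5 of 19 inhibitory subunits, with medians of -0.12 and 0. In *Gpr75-/-* mice the 10 lower members held 5 excitatory and 5 inhibitory subunits, with medians of -0.04 and 0.

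All 6 NMDA genes were lower by at least 0.1 on the HFD in WT mice, with a median of -0.23, and 4 of 6 in *Gpr75-/-* mice, with a median of -0.21. *Grin2c* was at -0.38 in WT and -0.22 in *Gpr75-/-* mice, *Grin2b* at -0.32 and -0.21, and *Grin2a* at -0.26 and -0.38. *Gabrb2* was at -0.99 (-1.04 to -0.94) in WT and -0.90 (-0.94 to -0.85) in *Gpr75-/-* mice, the lowest of the members in both genotypes. *Gabrd* was at -0.54 and -0.78. *Gabrg1* was higher on the HFD in WT mice, at 0.35, and at 0.06 in *Gpr75-/-* mice.

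In the same side-by-side values, excitatory scaffold genes had medians of -0.22 in WT and -0.17 in *Gpr75-/-* mice, and metabotropic glutamate and GABA-B receptor genes -0.14 and -0.17, so the lower values were not particular to the NMDA genes. Thalamic markers had medians of -0.24 in WT and -0.52 in *Gpr75-/-* mice, striatal markers -0.71 and -0.07, and cortical and hippocampal markers -0.24 and -0.18. All of these lists thus had medians below 0 in both genotypes, and *Gabrb2*, *Gabrd* and most NMDA genes were lower too. Their part in the diet values was not tested.

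The mRNA levels of genes for proteins that assemble, anchor or supply these receptors were compared between genotypes by the same measure. Counts in these lists too are past 0.1, where 22.5% of all genes were higher and 20.8% lower on chow. On the HFD 21.7% were higher and 16.6% lower. AMPA and kainate auxiliary subunits, which set receptor trafficking and gating, were lower by at least 0.1 in 7 of 13 cases and higher in 0 on chow, with a median of -0.11. On the HFD 7 were lower and 1 higher, again with a median of -0.11. The most abundant, *Cnih2*, was at -0.11 on both diets. *Neto1* (-0.26) and *Cacng2*, which encodes stargazin (-0.21), passed 0.2 on chow, and *Cacng7* (-0.29), *Neto2* (-0.21), *Cacng3* (-0.21) and, in the other direction, *Cacng8* (0.28) on the HFD. The shares of lower genes in this list were above the 20.8% and 16.6% of all genes. They were also above the 16.5% and 12.5% of genes with a mean of at least 100. Of the 4 AMPA genes, 2 were lower by at least 0.1 on chow and 1 on the HFD.

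Excitatory scaffold genes had 6 of 18 lower and 0 higher on chow, with a median of -0.05, and 4 lower and 2 higher on the HFD, with a median of 0. *Shank1*, the most abundant, was at -0.13 and 0.06, and *Homer1* at -0.23 and 0.00. *Homer2* was at -0.08 on chow and -0.24 on the HFD. *Homer3*, with a low mean normalized count of 60.3 and 62.3, was at -0.21 and 0.40. Inhibitory scaffold and GABA-A auxiliary genes had 1 of 10 lower on chow, and 1 higher and 1 lower on the HFD. *Gabarapl1* was at 0.07 and 0.00 there, and *Insyn1* at -0.26 on the HFD.

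Metabotropic glutamate and GABA-B receptor genes had 1 of 9 higher and 2 lower on chow, and 1 higher on the HFD. *Gabbr1* was at 0.00 and 0.07, and *Grm5* at -0.28 and -0.05. Glutamate synthesis and transport genes had 2 of 9 higher and 2 lower on chow and 2 lower on the HFD, with *Slc1a3* at 0.07 and 0.00. The vesicular transporter gene *Slc17a7*, which marks cortical and thalamic neurons, was at 0.13 on chow and -0.46 (-0.50 to -0.43) on the HFD. *Slc17a6*, the transporter gene of most hypothalamic glutamate neurons, was at 0.13 and -0.07.

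GABA and glycine synthesis and transport genes had 1 of 8 listed higher and 2 lower on chow, and 1 higher on the HFD. *Abat*, the most abundant on chow, was at 0.07 and 0.00, and *Gad1*, which makes GABA, at -0.14 and -0.07. Of the chloride cotransporter genes, which set the direction of the current through GABA-A and glycine receptors, *Slc12a5* was at 0.07 on both diets. *Slc12a2* was at -0.17 (-0.23 to -0.11) on chow and -0.34 (-0.39 to -0.28) on the HFD, and oligodendrocytes express this gene too.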

How the data were processed

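Hypothalamus libraries were made with a SMART-Seq mRNA kit and sequenced on an Illumina NovaSeq instrument. The submitters' processing notes name STAR, featureCounts, StringTie, DESeq2 and GRCm39, without versions. The signal that the authors deposited is the mean over 6 mice of counts divided by size factors. The log2 group means that the authors deposited were, from their values, log2(1 + mean log2 CPM), with 2 decimals and a floor at 0, and were decoded before differences were taken. The 18 columns of the authors' own comparisons (fold changes, standard errors, statistics and p-values) were not used. As a result no test was run, including on whether *Gabra6* was a count outlier. Samples were grouped by their titles. Levels used the longest transcript in GENCODE M21, which is built on GRCm38, for length only.

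Genes named were the 3 highest per kb in each class, the 5 highest and 5 lowest differences per diet among means of at least 100, all members past 0.2, *Gabra6* and *Gpr75*. Of 7 receptor and 12 cell type lists they were the most abundant gene and up to 4 past 0.2. Any further gene was chosen with its value in view. Members and lists were chosen with earlier results of these data known. The comparison of diets and the estimate of spread were added after seeing the data. Decoding was tested on simulated data, in which the estimate of spread came out too low. Analyses used Python 3.11.15, numpy 2.4.6, pandas 2.3.3 and matplotlib 3.10.9. Some results for single genes are not reported here.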

Additional observations from a re-analysis of the deposited data

How the results depend on the processing

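With a threshold of 0.05 in place of 0.1, 11 members were higher and 14 lower on chow, and 12 higher and 13 lower on the HFD. With 0.2 there were 3 and 2 on chow and 2 and 3 on the HFD. These counts differ because the threshold does. The excitatory to inhibitory level ratio was 0.257 on chow and 0.227 on the HFD with the median transcript length, and 0.803 and 0.747 without division by length. The level of *Gria2* over *Gria1*, 0.710 and 0.658 per kb of the longest transcript, was 0.992 and 0.920 with the median transcript length and 1.33 and 1.23 without division by length, so their order turned only in the latter. The excitatory minus inhibitory difference kept its direction on chow, from -0.12 to -0.09, and stayed between 0 and 0.03 on the HFD. The alternatives were a weighted mean, a mean of at least 100, a smaller excitatory set, and, added after seeing the data, no *Gabrb2*. Adding *Gabra6* left the HFD value at 0 and could not be run on chow. Counts with a mean of at least 100 were within 1.5 times the main ones, but the background shares also fell. Subtracting the median of all genes, which was 0 on both diets, could not alter a count and tests nothing. No paired analysis was possible because the values are 1 mean per group, which also kept any mouse from being left out. Depth limits *Gabrr2* and *Gabra6* most.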
